A study of Mus musculus with 12 samples.

Results

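The enzymes that make cholesterol and fatty acids, together with the SREBP proteins that control them, were examined in mouse spinal cord. The set held 31 genes, and was defined by symbol. Of these, 30 were measured by a probe set that names a single gene, out of 18194 genes on the array, and each was read from its brightest such probe set. Acat2 had no such probe set and was not analysed here. By role, 6 genes belonged to the mevalonate arm, 11 to the squalene and sterol arm, 5 to SREBP regulation, 1 to sterol transfer between membranes and 7 to fatty acid synthesis.

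The samples were Olig2cre/DA-Cat cords of day 15, wild-type cords of day 15, Olig2cre/DA-Cat cords of day 4 and wild-type cords of day 4, each with 3 arrays. Wild-type mice were littermates. Olig2cre brings Cre recombinase to cells that express Olig2, which include the oligodendrocyte lineage and motor neuron precursors, and DA-Cat denotes a dominant-active form of β-catenin, which carries the canonical Wnt signal into the nucleus. A Cre-only group was not analysed here, so effects of Cre alone cannot be told apart from those of DA-Cat. The labels tag day as developmental stage, but another label says of every sample, in both genotypes and at both days, that white matter had received 1% lysolecithin, a demyelinating agent. The treatment protocol gives 8- to 10-week-old adults, unlesioned or lesioned 14 days earlier. What the days count from is not stated, nor is the number of animals per sample, so p-values measure the spread between these samples.

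Cholesterol is built from acetyl-CoA through mevalonate and squalene. The SREBP transcription factors are made as precursors held in the endoplasmic reticulum by SCAP and INSIG proteins, and when sterols are scarce they move to the Golgi, are cut, enter the nucleus and switch on most genes of the set. Central nervous system cholesterol is made locally, and during myelination oligodendrocytes make much of it, since myelin membrane is rich in cholesterol and long-chain lipids.

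SREBP binds sterol response elements, usually beside sites of the cofactors NF-Y and Sp1. Promoter sequences were taken from RefSeq (GRCm38.p6), from 250 bases before to 50 after a transcript's start, and 24 of the 30 genes had an entry, with 32 promoters in all. A sterol response element spelled TCACNCCAC occurred in 1 of the 24 genes (4.17%), Hmgcs1, against 1.436% of 27025 genes with an entry, both strands being searched. The NF-Y letters CCAAT occurred in 21 of 24 (87.5%), against 41.058% of all genes, and the Sp1 letters GGGCGG in 20 of 24 (83.33%), against 38.202%. The E-box CACGTG, which SREBP can also bind, occurred in 5 of 24 (20.83%), against 8.093%. A match is a description of the letters in this window only, and the cofactor boxes are frequent in promoters of all kinds. The 27025 genes were not limited to those measured here and were not matched to the set in signal. No searched motif contains another. The promoter of Hmgcs1 at chr13:119690101-119690400 (plus strand) is shown because it alone held this spelling of the sterol response element. The match is in capitals and starts 137 bases before the start site. Variant spellings of the element were not searched. The promoters of Msmo1 at chr8:64733529-64733828 (minus strand) and Idi1 at chr13:8885356-8885655 (plus strand) are shown, chosen after the motif counts were seen, as genes lower in Olig2cre/DA-Cat at both days with several NF-Y boxes. Their capitals mark 3 boxes in Msmo1 and 2 in Idi1, there on the opposite strand. Of the other genes lower at both days, Hmgcs1 held 4 and Lss, Cyp51, Sc5d and Acss2 held 1 each. Mvk held 5 and Nsdhl 4, and neither passed in a genotype comparison. Whether the number of boxes goes with the genotype difference was not tested.
Hmgcs1: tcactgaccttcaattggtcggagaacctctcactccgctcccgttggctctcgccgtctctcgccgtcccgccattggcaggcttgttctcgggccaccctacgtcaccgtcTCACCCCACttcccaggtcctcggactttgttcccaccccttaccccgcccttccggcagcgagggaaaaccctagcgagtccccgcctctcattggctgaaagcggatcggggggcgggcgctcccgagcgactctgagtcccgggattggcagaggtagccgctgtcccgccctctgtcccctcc
Msmo1: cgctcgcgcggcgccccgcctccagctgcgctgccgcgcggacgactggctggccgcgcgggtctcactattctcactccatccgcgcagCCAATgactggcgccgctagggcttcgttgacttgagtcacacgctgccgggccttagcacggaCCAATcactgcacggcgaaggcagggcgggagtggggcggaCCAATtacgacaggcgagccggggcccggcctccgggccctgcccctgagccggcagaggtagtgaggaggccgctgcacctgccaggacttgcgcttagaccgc
Idi1: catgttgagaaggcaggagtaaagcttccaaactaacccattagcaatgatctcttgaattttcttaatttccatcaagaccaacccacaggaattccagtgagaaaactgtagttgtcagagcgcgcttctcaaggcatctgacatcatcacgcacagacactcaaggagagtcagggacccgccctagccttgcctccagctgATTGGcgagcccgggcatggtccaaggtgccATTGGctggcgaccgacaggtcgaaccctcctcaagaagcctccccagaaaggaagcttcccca

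Levels are log2 signals and differences are log2, given as mean ± SD (n = 3 arrays per group) or difference ± SE. All tests are limma moderated tests on the 12 arrays, with p-values adjusted over 18194 genes and a threshold of 0.05. Array medians lay between 6.14 and 6.19 and the 12 probe sets for bacterial controls centred on 3.06, whereas group means of the 30 genes ran between 8.65 and 13.88, so none was near background. Arrays of a group correlated at 0.994 to 0.997 over genes. All 8 neuron and all 8 astrocyte markers were above the array medians on every array, and so were the oligodendrocyte markers except Mog, at 5.80, 5.51 and 5.10 in Olig2cre/DA-Cat at day 4. Neuron genes had a mean of 12.47 to 12.72, so neuronal RNA was present in every sample although the source label names white matter. Skeletal muscle genes, which spinal cord should lack, varied widely between arrays. In day 15 samples the mean over all 12 genes of the list reached 10.93, 5.84 and 8.94 in Olig2cre/DA-Cat, against 6.95, 5.72 and 7.82 in wild type. In day 4 samples it was 5.99, 9.11 and 7.91 in Olig2cre/DA-Cat and 5.74, 8.45 and 6.64 in wild type. One of the 12, Pvalb, is also a neuron gene.

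At day 15, part of the cholesterol synthesis set was lower in Olig2cre/DA-Cat cords than in wild-type cords, by 1.24- to 1.48-fold in the genes that passed. Of 30 genes 7 fell and 0 rose, against 2.31% of all genes lower and 0.616% higher. The 7 were Hmgcs1 and Idi1 of the mevalonate arm, Lss, Cyp51, Msmo1 and Sc5d of the squalene and sterol arm, and Acss2, which makes acetyl-CoA from acetate. The median difference of the 30 genes was -0.24, against 0.02 over all genes. All 17 sterol synthesis enzymes had a negative difference, with a median of -0.36. In 17 of the 30 genes every Olig2cre/DA-Cat array lay below every wild-type array, against 9.69% of all genes.

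The day 15 difference differed in size between the Olig2cre/DA-Cat arrays. For the 17 sterol enzymes the mean level came to 10.34, 10.74 and 10.56 in Olig2cre/DA-Cat, against 10.86, 10.83 and 10.97 in wild type. The 3 Olig2cre/DA-Cat arrays thus ran in the opposite order to their skeletal muscle level, the array with the most muscle signal being the lowest, while in wild type the array with the most muscle signal was the highest. The number of the 30 genes lying below all wild-type day 15 arrays was 25 on replicate 1, 19 on replicate 2 and 24 on replicate 3 of Olig2cre/DA-Cat. The same count was not made over all genes, so these numbers describe the arrays and do not set the 30 genes apart. With the muscle level as a covariate 4 of 30 genes were lower, and without the 4 arrays whose muscle level was over 8 it was 0, with a median of -0.12. That exclusion leaves 1 Olig2cre/DA-Cat array at day 15, whose spread was taken from the other groups. Fitted on the day 15 arrays alone, 1 gene passed. The count was 3 without Olig2cre/DA-Cat day 15 replicate 1, 12 without replicate 2 and 3 without replicate 3. Without wild-type day 15 replicates 1, 2 and 3 in turn it was 3, 4 and 3. It was also 4 without day 4 replicate 2 or replicate 3 of either genotype. Over all genes, 299, 607 and 253 were lower without Olig2cre/DA-Cat day 15 replicates 1, 2 and 3 in turn. Without the wild-type day 15 replicates it was 256, 310 and 316, against 421 with all arrays, so calls over all genes moved too. The part of muscle RNA in the day 15 difference was not tested beyond these values.

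**Figure D1:**
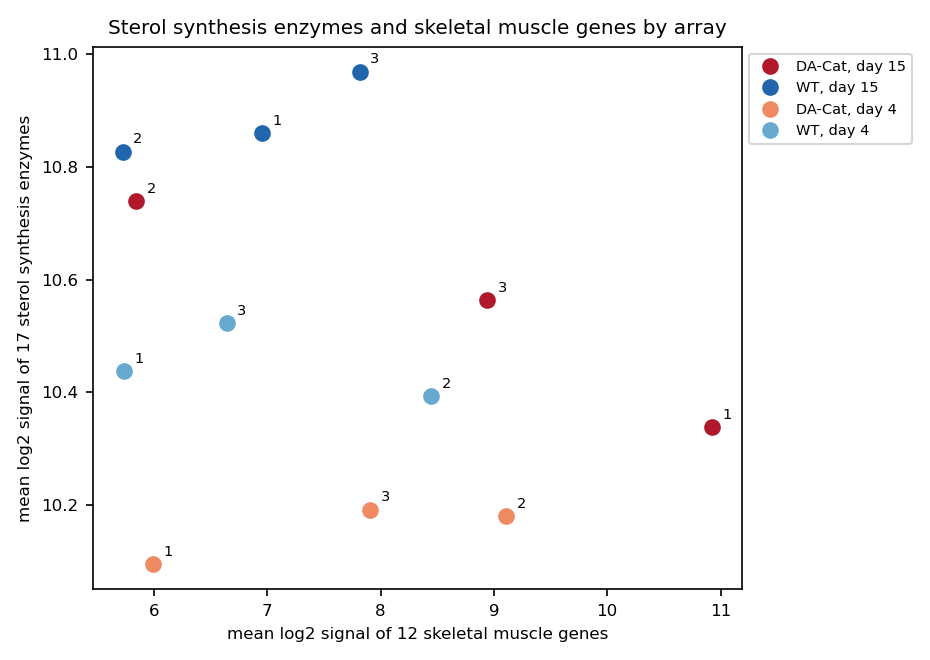
Mean log2 signal of the 17 sterol synthesis enzymes (vertical axis) against the mean log2 signal of 12 skeletal muscle genes (horizontal axis), 1 point per array with its replicate number and colours for the 4 groups. At day 15 the Olig2cre/DA-Cat points descend from 10.74 to 10.34 as the muscle level goes up from 5.84 to 10.93, and at day 4 all 3 Olig2cre/DA-Cat points lie at 10.10 to 10.19, below the wild-type points at 10.39 to 10.52.

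At day 4 some genes of both sterol arms and of fatty acid synthesis were lower in Olig2cre/DA-Cat than in wild type. Of 30 genes 9 fell and 0 rose, against 1.81% of all genes lower and 1.30% higher. The 9 comprised all 7 of day 15 together with Scd1 and Elovl6. Of the 17 sterol enzymes 6 fell, 2 of 6 in the mevalonate arm and 4 of 11 in the squalene and sterol arm, and the median difference of the 30 genes was -0.22, against 0.03 over all genes. In 20 of 30 genes the Olig2cre/DA-Cat arrays all lay below the wild-type arrays, against 10.3% of all genes. The split of all calls depended on scaling, with 237 genes higher and 330 lower in the deposited values, 129 and 385 after quantile normalization and 117 and 398 after centring on the median of all genes, while of the 30 genes 0 were higher in all 3 versions, and 11 were lower after quantile normalization and 10 after centring.

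The mean of the sterol enzymes at day 4 was 10.10, 10.18 and 10.19 in Olig2cre/DA-Cat and 10.44, 10.39 and 10.52 in wild type, and the groups did not overlap. In Olig2cre/DA-Cat muscle level showed no such order here: the array with the least muscle signal had the lowest sterol enzyme mean. In wild type the array with the most muscle signal, at 8.45, had the lowest sterol enzyme mean, at 10.39. With the muscle level as a covariate 9 genes were lower, and without the 4 muscle-rich arrays 7, with a median of -0.27. The count was 5, 3 and 4 without Olig2cre/DA-Cat day 4 replicates 1, 2 and 3, and 4 without wild-type day 4 replicate 1. Over all genes, 266, 203, 209 and 206 were lower in these fits, against 330 with all arrays.

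**Figure D2:**
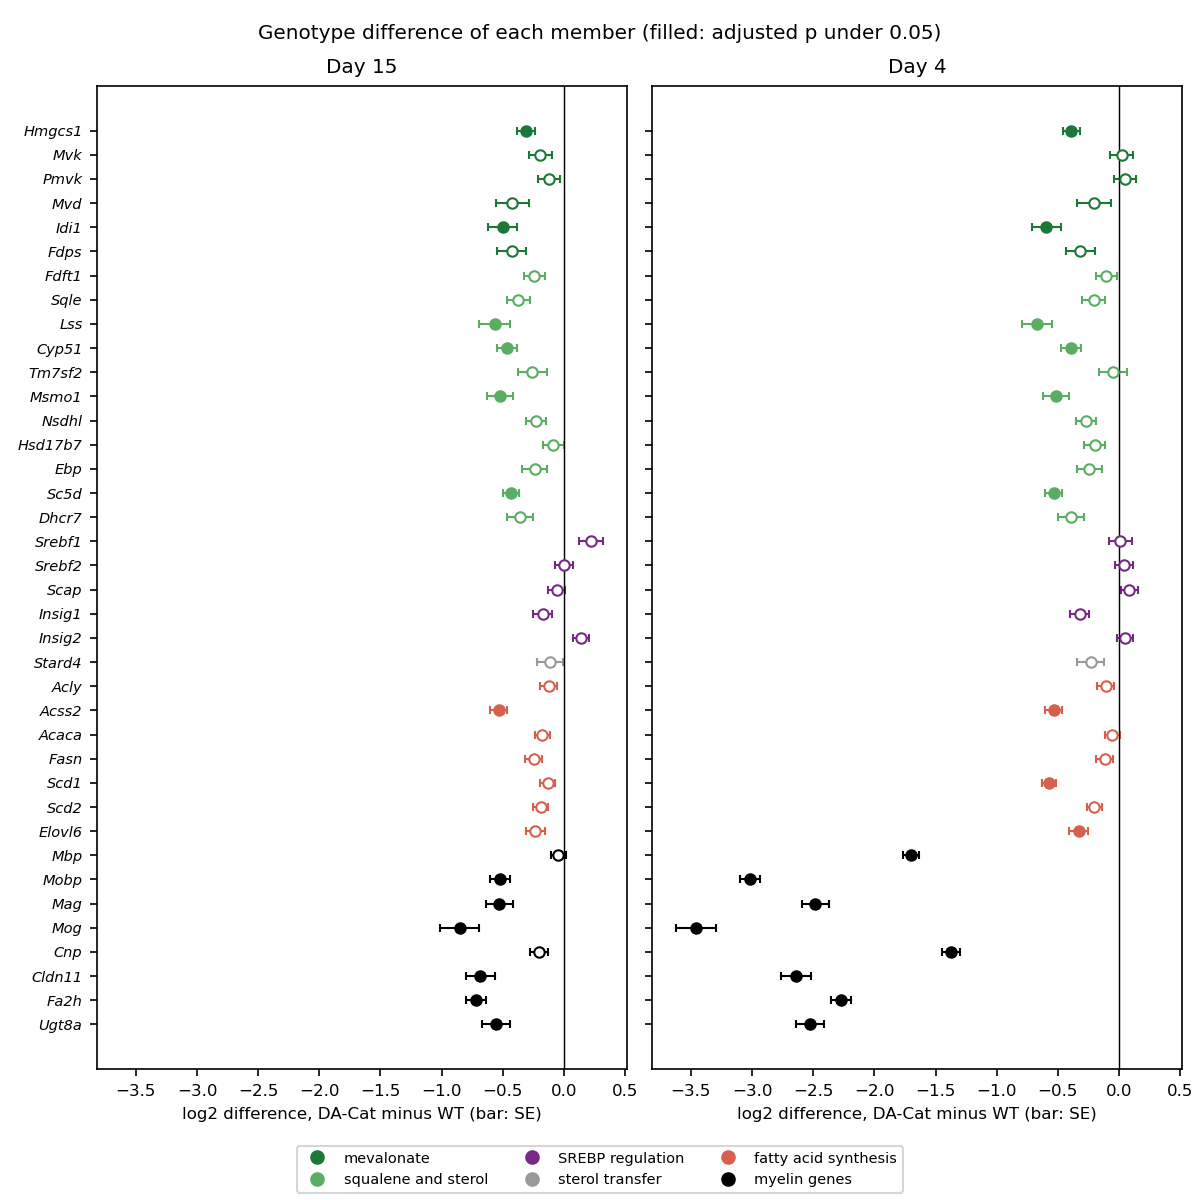
Log2 difference of Olig2cre/DA-Cat minus wild type (horizontal axis, bars ± SE) for the 30 genes and 8 myelin genes, at day 15 in the left panel and at day 4 in the right panel, coloured by role and filled where the adjusted p was under 0.05. The 7 filled genes of the set at day 15 lie between -0.57 and -0.31 and the 9 at day 4 between -0.67 and -0.33. The myelin genes range from -0.85 to -0.04 at day 15 and from -3.46 to -1.37 at day 4.

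The mevalonate arm turns acetyl-CoA into farnesyl diphosphate. Hmgcs1, the cytosolic HMG-CoA synthase at its entry, had 13.43, 13.69 and 13.60 in Olig2cre/DA-Cat at day 15 and 13.86, 13.84 and 13.95 in wild type. Hmgcs1 at day 4 had 13.07, 13.13 and 13.19 in Olig2cre/DA-Cat, against 13.58, 13.48 and 13.49 in wild type. All arrays of the mutant lay below all wild-type arrays at both days. Hmgcs1 fell by 0.31 ± 0.07 at day 15 (adjusted p = 0.038) and by 0.39 ± 0.07 at day 4 (adjusted p = 0.012), and its 5 probe sets were all lower, by 0.31 to 0.47 at day 15 and by 0.39 to 0.64 at day 4 in size. Idi1, the isomerase of isopentenyl diphosphate, had 11.40, 11.95 and 11.75 in Olig2cre/DA-Cat at day 15 and 12.20, 12.08 and 12.33 in wild type. Idi1 at day 4 had 10.90, 11.01 and 11.02 in Olig2cre/DA-Cat, against 11.67, 11.48 and 11.57 in wild type. The groups were apart at both days, and the mutant arrays lay closer together at day 4 than at day 15. Idi1 fell by 0.50 ± 0.12 at day 15 (adjusted p = 0.0434) and by 0.60 ± 0.12 at day 4 (adjusted p = 0.0192).

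The other mevalonate genes did not pass in either comparison. Fdps, the farnesyl diphosphate synthase, averaged 11.25 ± 0.29 in Olig2cre/DA-Cat and 11.68 ± 0.09 in wild type at day 15, a difference of -0.43 ± 0.12 (adjusted p = 0.0841), and -0.32 ± 0.12 at day 4 (adjusted p = 0.16). The difference of Mvd, the mevalonate diphosphate decarboxylase, was -0.42 ± 0.14 at day 15 and -0.20 ± 0.14 at day 4. The kinases Mvk and Pmvk differed by -0.19 and -0.12 at day 15 and by 0.02 and 0.05 at day 4, with overlapping groups throughout.

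The squalene and sterol arm closes squalene into lanosterol and then trims it to cholesterol. Lss, the lanosterol synthase that closes the rings, had 9.63, 10.29 and 9.95 in Olig2cre/DA-Cat at day 15 and 10.46, 10.48 and 10.63 in wild type. Lss at day 4 had 9.29, 9.29 and 9.23 in Olig2cre/DA-Cat, against 9.90, 9.91 and 10.01 in wild type. The mutant arrays of day 15 were spread out and those of day 4 nearly equal, and neither group overlapped its wild type. Lss fell by 0.57 ± 0.13 at day 15 (adjusted p = 0.0319) and by 0.67 ± 0.13 at day 4 (adjusted p = 0.0133), a level 1.48-fold lower at day 15 and 1.59-fold lower at day 4. The differences of its 3 probe sets ran from -0.57 to -0.21 at day 15 and from -0.79 to -0.31 at day 4.

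Cyp51, the demethylase that acts on lanosterol, had 10.43, 10.75 and 10.62 in Olig2cre/DA-Cat at day 15 and 11.12, 11.03 and 11.05 in wild type. Cyp51 at day 4 had 10.09, 10.08 and 10.08 in Olig2cre/DA-Cat, against 10.50, 10.36 and 10.57 in wild type. The groups were apart at both days. Cyp51 fell by 0.46 ± 0.08 at day 15 (adjusted p = 0.00868) and by 0.40 ± 0.08 at day 4 (adjusted p = 0.0229). Msmo1, the methylsterol monooxygenase of the next steps, had 11.42, 11.91 and 11.61 in Olig2cre/DA-Cat at day 15 and 12.13, 12.12 and 12.27 in wild type. Msmo1 at day 4 had 10.81, 10.85 and 10.85 in Olig2cre/DA-Cat, against 11.47, 11.24 and 11.35 in wild type. Here too no mutant array reached the wild-type range. Msmo1 fell by 0.52 ± 0.11 at day 15 (adjusted p = 0.019) and by 0.51 ± 0.11 at day 4 (adjusted p = 0.0225), although a second, dim probe set near the level of 4.64 differed by 0.08 and 0.03.

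Sc5d, the sterol desaturase that acts near the end of the route, had 10.27, 10.47 and 10.38 in Olig2cre/DA-Cat at day 15 and 10.82, 10.75 and 10.87 in wild type. Sc5d at day 4 had 9.26, 9.23 and 9.26 in Olig2cre/DA-Cat, against 9.72, 9.74 and 9.89 in wild type. It fell by 0.43 ± 0.07 at day 15 (adjusted p = 0.00452) and by 0.53 ± 0.07 at day 4 (adjusted p = 0.000782). Its 3 probe sets disagreed in size, with the smallest difference -0.09 at both days, although from different probe sets. Among the 7 other enzymes of the arm none passed in either comparison. Sqle, the squalene epoxidase, differed by -0.37 ± 0.09 at day 15 (adjusted p = 0.0559) and by -0.21 ± 0.09 at day 4 (adjusted p = 0.232). Dhcr7, which catalyses a last step, differed by -0.36 ± 0.11 at day 15 (adjusted p = 0.105) and by -0.39 ± 0.11 at day 4 (adjusted p = 0.0718). The remaining 5, namely Fdft1, Tm7sf2, Nsdhl, Hsd17b7 and Ebp, had differences of -0.26 to -0.09 at day 15 and of -0.27 to -0.05 at day 4.

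**Figure D3:**
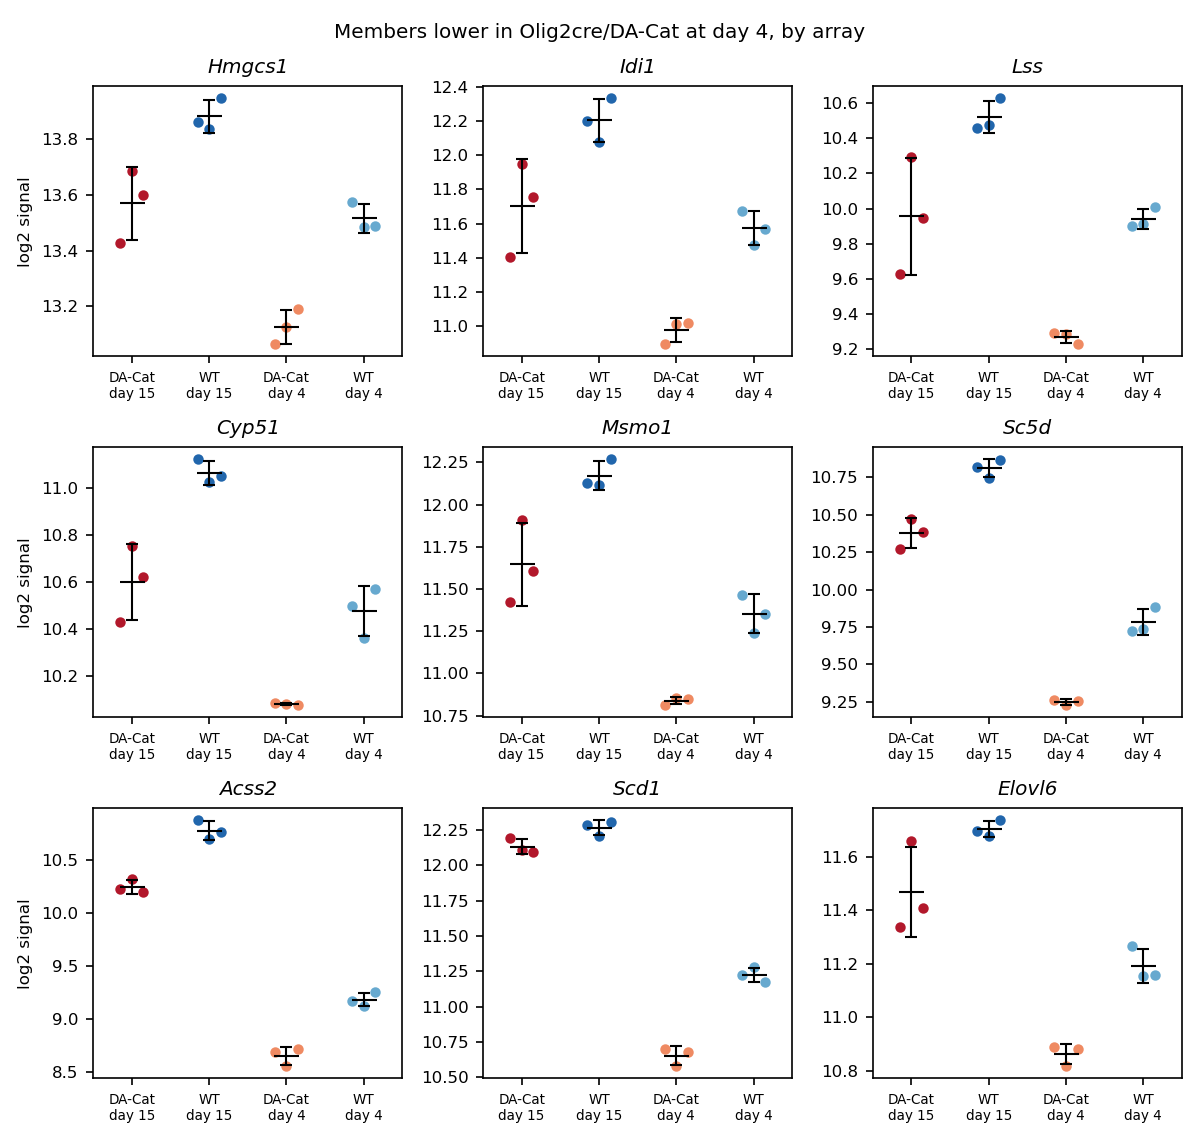
Log2 signal (vertical axis, scaled per gene and not starting at 0) of the 9 genes lower in Olig2cre/DA-Cat at day 4, by group, with 1 point per array and the mean ± SD (n = 3) as bars. At day 4 the 3 Olig2cre/DA-Cat points lie below the 3 wild-type points in all 9 panels, for example at 9.23 to 9.29 against 9.90 to 10.01 for Lss.

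In fatty acid synthesis 1 of 7 genes fell at day 15 and 3 of 7 at day 4. Acss2, the cytosolic acetyl-CoA synthetase, had 10.23, 10.32 and 10.20 in Olig2cre/DA-Cat at day 15 and 10.88, 10.70 and 10.76 in wild type. Acss2 at day 4 had 8.69, 8.55 and 8.71 in Olig2cre/DA-Cat, against 9.17, 9.12 and 9.25 in wild type. The mutant arrays lay below wild type at both days, and here the day 15 arrays were close together whatever their muscle level. Acss2 fell by 0.53 ± 0.07 at day 15 (adjusted p = 0.00171) and by 0.53 ± 0.07 at day 4 (adjusted p = 0.000903). The differences of its 3 probe sets ran from -0.55 to -0.09 at day 15 and from -0.69 to -0.12 at day 4.

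Scd1, a desaturase that makes monounsaturated fatty acids, had 12.20, 12.11 and 12.10 in Olig2cre/DA-Cat at day 15 and 12.28, 12.21 and 12.31 in wild type. Scd1 at day 4 had 10.70, 10.58 and 10.68 in Olig2cre/DA-Cat, against 11.22, 11.28 and 11.18 in wild type. The gap was wide at day 4 and narrow at day 15. Scd1 fell by 0.57 ± 0.06 at day 4 (adjusted p = 0.000145) and differed by -0.13 ± 0.06 at day 15 (adjusted p = 0.287). A dimmer probe set of Scd1 differed by -0.22 ± 0.15 at day 4 and did not pass.

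Elovl6, the elongase of saturated and monounsaturated chains, had 11.34, 11.66 and 11.41 in Olig2cre/DA-Cat at day 15 and 11.70, 11.68 and 11.74 in wild type. Elovl6 at day 4 had 10.89, 10.82 and 10.88 in Olig2cre/DA-Cat, against 11.26, 11.15 and 11.16 in wild type. It fell by 0.33 ± 0.08 at day 4 (adjusted p = 0.0421), a call that was lost in 14 of 23 alternative settings, and differed by -0.24 ± 0.08 at day 15 (adjusted p = 0.144). Another probe set of Elovl6 differed by -0.20 at day 15 and -0.33 at day 4, and a dim one near the level of 5.41 by 0.04 and 0.10. The differences of Fasn, the fatty acid synthase, were -0.25 ± 0.07 at day 15 (adjusted p = 0.09) and -0.12 ± 0.07 at day 4 (adjusted p = 0.361). Acly, Acaca and Scd2, which supply and desaturate fatty acids or their precursors, had differences of -0.19 to -0.12 at day 15 and of -0.20 to -0.05 at day 4 without passing. A dimmer probe set of Scd2 differed by -0.27 ± 0.06 at day 4 and passed (adjusted p = 0.0368 with every probe set tested singly). Another differed by -0.27 ± 0.32 and did not.

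None of the 5 regulators passed in either genotype comparison. Srebf2, whose protein mainly drives sterol genes, had 9.31, 9.51 and 9.49 in Olig2cre/DA-Cat at day 15 and 9.48, 9.48 and 9.35 in wild type. Srebf2 at day 4 had 9.42, 9.41 and 9.45 in Olig2cre/DA-Cat, against 9.30, 9.38 and 9.49 in wild type. The groups overlapped at both days, with differences of 0.00 ± 0.07 at day 15 and 0.04 ± 0.07 at day 4. A dimmer probe set of Srebf2 differed by -0.33 ± 0.08 at day 15 (adjusted p = 0.0633 with every probe set tested singly), so its probe sets did not give the same picture. Srebf1, whose protein mainly drives fatty acid genes, had 9.63, 9.42 and 9.72 in Olig2cre/DA-Cat at day 15 and 9.25, 9.27 and 9.58 in wild type. Srebf1 at day 4 had 9.87, 9.89 and 9.97 in Olig2cre/DA-Cat, against 9.89, 9.96 and 9.86 in wild type. These groups overlapped as well, with differences of 0.22 ± 0.10 at day 15 (adjusted p = 0.264) and 0.01 ± 0.10 at day 4.

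Scap, which escorts SREBP to the Golgi, had 9.73, 9.62 and 9.85 in Olig2cre/DA-Cat at day 15 and 9.78, 9.73 and 9.87 in wild type. Scap at day 4 had 10.09, 10.03 and 10.11 in Olig2cre/DA-Cat, against 9.98, 9.99 and 10.01 in wild type. The difference was -0.06 ± 0.07 at day 15 and 0.08 ± 0.07 at day 4, where the mutant arrays were the higher ones. Insig1, which retains SCAP and is itself a target of SREBP, had 10.42, 10.65 and 10.48 in Olig2cre/DA-Cat at day 15 and 10.62, 10.59 and 10.85 in wild type. Insig1 at day 4 had 10.22, 10.14 and 10.09 in Olig2cre/DA-Cat, against 10.50, 10.44 and 10.47 in wild type. The groups overlapped at day 15 and were apart at day 4, and the difference of -0.32 ± 0.08 at day 4 lay just outside the threshold (adjusted p = 0.0528) and passed in 10 of 23 alternative settings. Insig2, its relative, had 9.71, 9.54 and 9.51 in Olig2cre/DA-Cat at day 15 and 9.48, 9.43 and 9.42 in wild type, a difference of 0.14 ± 0.07 (adjusted p = 0.307). Insig2 at day 4 had 8.96, 8.97 and 8.89 in Olig2cre/DA-Cat, against 8.83, 8.96 and 8.88 in wild type, and the groups overlapped. Its probe sets did not share a direction. A dimmer one differed by -0.11 at day 15 and -0.16 at day 4, and another by 0.19 and 0.11, none passing. Stard4, which carries sterol between membranes, differed by -0.11 ± 0.11 at day 15 and by -0.23 ± 0.11 at day 4 without passing.

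No gene of the set was shown to differ between genotypes by another amount at day 15 than at day 4. All measured myelin genes were shown to. In the test of the genotype difference at day 15 minus that at day 4, 0 of 30 genes passed by limma. Of all genes 0.352% passed in either direction, so 0 of 30 does not set these genes apart. At an unadjusted p under 0.05 there was 1 gene of the set. That 1 was Scd1, at 0.44 ± 0.08 with a 95% interval of 0.255 to 0.625 (adjusted p = 0.0571), and it passed in 4 of 22 alternative settings. The intervals of the other 29 genes included 0 and, with that of Scd1, had bounds between -0.637 and 0.625, so the genotype differences are not shown to be equal at the 2 days. The 8 measured myelin genes include the lipid enzymes Fa2h and Ugt8a, and their list was chosen with earlier results of these data known. All 8 passed in the same test, with a median of 1.96 and a lowest interval bound of 0.939. Their genotype difference had a median of -0.54 at day 15, where 6 of 8 fell, and of -2.50 at day 4, where 8 of 8 fell. Mog, a surface protein of myelin, averaged 10.80 ± 0.23 in Olig2cre/DA-Cat and 11.65 ± 0.14 in wild type at day 15, and 5.47 ± 0.35 in Olig2cre/DA-Cat and 8.93 ± 0.14 in wild type at day 4. The mean of 10 oligodendrocyte markers at day 15 was 11.89, 12.22 and 12.11 in Olig2cre/DA-Cat, against 12.53, 12.50 and 12.60 in wild type. At day 4 it was 9.65, 9.65 and 9.51 in Olig2cre/DA-Cat and 11.61, 11.50 and 11.58 in wild type. The markers include Mbp, Mobp, Mag, Mog, Cnp, Cldn11 and Ugt8a of the myelin genes, so their mean is no separate reading. Single markers differed by -3.46 to -0.44 at day 4, and 7 of the 10 passed in the test of the difference between days. The marker level was thus lower in the mutant at both days beside the lower lipid genes, and in such bulk tissue fewer cells of a type and less RNA per cell cannot be told apart.

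Most genes of the set were higher at day 15 than at day 4 in each genotype. In Olig2cre/DA-Cat 17 of 30 rose and 4 fell with day, against 21.8% of all genes higher and 26.3% lower, with a median change of 0.36. In wild type 22 rose and 3 fell, against 21.3% of all genes higher and 23.6% lower, with a median of 0.40. The 17 that rose in Olig2cre/DA-Cat also rose in wild type. For all genes the split with day in Olig2cre/DA-Cat was 3965 higher and 4779 lower in the deposited values and 5131 and 4021 after centring on the median. In wild type it was 3869 higher and 4292 lower in the deposited values and 4668 and 3527 after centring.

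The largest increases belonged to Acss2, Scd1 and Sc5d. Acss2 averaged 10.25 ± 0.06 at day 15 and 8.65 ± 0.08 at day 4 in Olig2cre/DA-Cat, and 10.78 ± 0.09 at day 15 and 9.18 ± 0.07 at day 4 in wild type, a rise of 1.60 ± 0.07 in both (adjusted p = 5.73e-09 in Olig2cre/DA-Cat and 1.17e-08 in wild type). Scd1 rose by 1.48 ± 0.06 in Olig2cre/DA-Cat and by 1.04 ± 0.06 in wild type. Sc5d rose by 1.13 ± 0.07 in Olig2cre/DA-Cat and by 1.03 ± 0.07 in wild type. Among the sterol enzymes Hsd17b7, which reduces a sterol ketone, rose by 0.84 in Olig2cre/DA-Cat and by 0.73 in wild type. Ebp, a sterol isomerase, rose by 0.81 in each genotype, and Msmo1 rose by 0.81 in Olig2cre/DA-Cat and by 0.82 in wild type.

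A few genes went the other way with day. Tm7sf2, a sterol reductase, fell by 0.63 ± 0.12 in Olig2cre/DA-Cat and by 0.42 ± 0.12 in wild type, the only sterol enzyme of the 17 that fell. Scap fell by 0.35 ± 0.07 in Olig2cre/DA-Cat and by 0.20 ± 0.07 in wild type, and Srebf1 fell by 0.32 ± 0.10 in Olig2cre/DA-Cat and by 0.53 ± 0.10 in wild type. In contrast Insig2 rose by 0.65 ± 0.07 in Olig2cre/DA-Cat and by 0.56 ± 0.07 in wild type, and Insig1 rose by 0.36 ± 0.08 in Olig2cre/DA-Cat and by 0.22 ± 0.08 in wild type. Srebf2 differed by 0.01 in Olig2cre/DA-Cat and by 0.05 in wild type without passing. Fasn fell by 0.19 ± 0.07 in Olig2cre/DA-Cat (adjusted p = 0.0402) and differed by -0.06 ± 0.07 in wild type. Mvd, Fdps, Fdft1, Sqle and Acaca passed as higher in wild type alone. None of these 6 passed the test of the difference between genotypes.

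**Figure D4:**
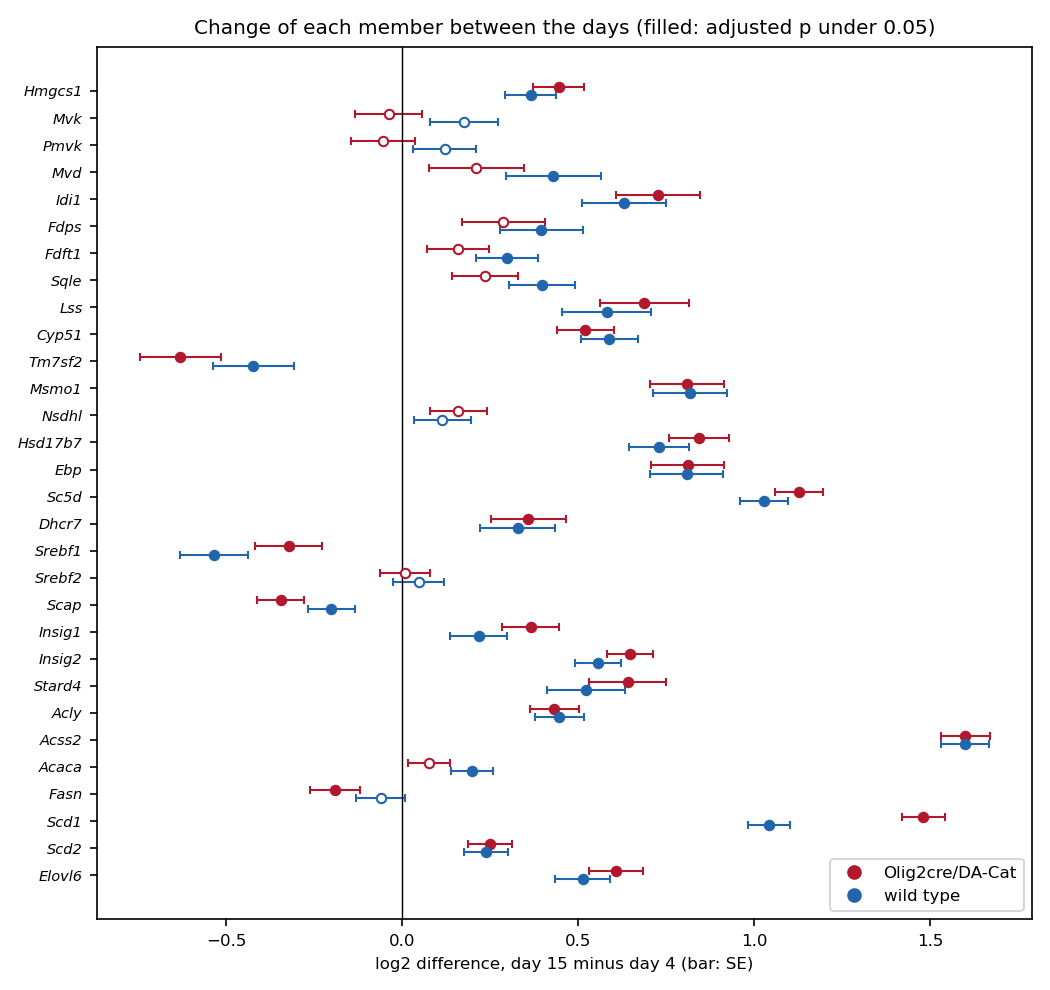
Log2 difference of day 15 minus day 4 (horizontal axis, bars ± SE) for each of the 30 genes, with Olig2cre/DA-Cat drawn above wild type and filled where the adjusted p was under 0.05. Most points lie right of 0, up to 1.60 for Acss2, while Tm7sf2, Srebf1, Scap and Fasn lie left of 0 in both genotypes, Fasn in wild type without passing.

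The day 15 mutant level was also placed between the wild-type levels of the 2 days, as a description. For 20 of 30 genes (66.7%) the mean of Olig2cre/DA-Cat at day 15 lay inside the span of wild type at day 15 and wild type at day 4, against 44.5% of all genes. For 11 of these (36.7% of the 30) it was nearer to wild type at day 4, against 12.4% of all genes. Lss is an example, with 9.96 ± 0.33 in Olig2cre/DA-Cat at day 15 beside 10.52 ± 0.09 in wild type at day 15 and 9.94 ± 0.06 in wild type at day 4. The 3 mutant arrays of Lss differed, however: replicate 2, which had the least muscle signal, stood at 10.29, nearer to wild type of day 15, and the muscle-rich replicates 1 and 3 at 9.63 and 9.95. Acss2 lay nearer to wild type of its own day. In sign, 27 of the 30 genes were lower in Olig2cre/DA-Cat at day 15 and 26 were higher with day in wild type. Those signs make such a place likely, so the shares of the set are no separate result.

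Outside the set, 44 of 52 further genes of lipid handling were measured, covering sterol transport, uptake, oxidation and chain elongation. At day 15, 6 of the 44 fell and 0 rose, with a median of -0.05, beside 2.31% of all genes lower and 0.616% higher. Npc1, which exports cholesterol from lysosomes, averaged 7.89 ± 0.07 in Olig2cre/DA-Cat and 8.36 ± 0.13 in wild type, and fell by 0.47 ± 0.07 (adjusted p = 0.00452). Lbr, a sterol reductase of the nuclear membrane, fell by 0.35 ± 0.06, Stard3, a late endosomal sterol carrier, by 0.42 ± 0.07, and Elovl1, an elongase of very long chains, by 0.55 ± 0.11.

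At day 4, 4 of the 44 fell and 1 rose, with a median of -0.02, beside 1.81% of all genes lower and 1.30% higher. Elovl1 averaged 9.05 ± 0.09 in Olig2cre/DA-Cat and 10.11 ± 0.15 in wild type, and fell by 1.06 ± 0.11 (adjusted p = 0.000137). Acsl3, an acyl-CoA synthetase, fell by 0.54 ± 0.06, Osbpl1a, an oxysterol-binding protein relative, by 0.38 ± 0.07, and Cyp27a1, which oxidises cholesterol, by 0.91 ± 0.19. The gene that rose was Lrp8, a lipoprotein receptor family member, at 0.39 ± 0.09 (adjusted p = 0.0378), named after its values were seen, as the single gene that rose. With day, 20 of the 44 rose and 11 fell in Olig2cre/DA-Cat, beside 21.8% of all genes higher and 26.3% lower. In wild type 23 rose and 11 fell, beside 21.3% of all genes higher and 23.6% lower, and 0 passed the test of the difference between genotypes.

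Fat tissue would also carry fatty acid synthesis genes, so its markers were read beside them. Of 8 measured adipocyte markers, Adipoq, Cidec, Lep and Pck1 lay between 3.23 and 4.63 on all arrays, near the bacterial controls. Retn and Lipe lay between 5.72 and 6.55, and Dgat2, a triglyceride synthesis enzyme that other cells also express, between 9.09 and 9.93. Dgat2 had 9.36, 9.48 and 9.44 in Olig2cre/DA-Cat and 9.75, 9.93 and 9.79 in wild type at day 15, where it was the 1 marker of the 8 that passed, and fell by 0.40 ± 0.07 (adjusted p = 0.00662). No marker of the 8 passed at day 4. Fabp4, which fat and other cells express, had 8.54, 4.20 and 6.64 in Olig2cre/DA-Cat and 4.10, 3.27 and 5.12 in wild type at day 15, and moved with the muscle genes. Meninges and fibroblast genes had a mean of 9.87, 9.89 and 9.21 in Olig2cre/DA-Cat and 8.58, 8.79 and 9.78 in wild type at day 15, with overlapping groups. All 8 of these genes had a positive difference at day 15, with a median of 0.64, and 0 passed. The 4 measured Schwann cell genes also had positive differences at day 15, with a median of 0.57. Of these Ncmap rose by 1.25 ± 0.20 (adjusted p = 0.00485), Egr2 was higher on all Olig2cre/DA-Cat arrays without passing, and the other 2 overlapped. The part of these cells in the lipid gene differences was not tested.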

How the data were processed

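Total RNA of 12 spinal cord samples was measured on biotin-labelled Affymetrix 3' arrays, 1 array per sample. The deposited values are log2 signals per probe set, a scale judged from their range, and the authors' background correction and normalization are not given in the sources used here. Arrays have no read depth, so their number sets the precision, with a residual SD of 0.106 for the median gene. The platform annotation gave 1 symbol for 34958 of 45101 probe sets, several for 932 and none for 9211. Of the 1-symbol sets 34754 matched RefSeq (GRCm38.p6) and 0 symbols changed. The brightest set per gene was kept, without a filter, which left 18194 genes.

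Groups came from the submitters' labels. limma 3.58.1 in R 4.3.3 (lmFit, contrasts.fit, eBayes, two-sided, Benjamini-Hochberg over all genes) fitted 4 group means, with 8 residual and 3.96 prior degrees of freedom. It was first tested on simulated data with independent noise. Those data held no differences in muscle signal between arrays, so that test does not speak to calls that move with muscle signal. The genes of the set and all lists were chosen with earlier results of these data known. All genes of the set could be named, with values per array for those past the threshold in a genotype comparison and for the 5 regulators. Of other lipid genes up to 4 per comparison were named, by smallest p. Promoters were searched for fixed letters on both strands. Normalization, filtering, variance model, probe set summary, arrays used, replicate block, muscle covariate and leaving out arrays were varied, 23 alternatives in all.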

Additional observations from a re-analysis of the deposited data

How the results depend on the processing

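No gene of the set passed as higher in Olig2cre/DA-Cat in either genotype comparison under any of the 23 alternatives. At day 15 the count of lower genes, 7 as reported, was 4 with the mean of a gene's probe sets, 1 with the arrays of the compared groups only and 4 with the muscle covariate. It was 0 without the 4 muscle-rich arrays and 3 to 12 when leaving out 1 array at a time. Its median stayed between -0.30 and -0.12. Acss2 kept its call in 22 of 23 alternatives, Cyp51 in 21, Sc5d in 20, Msmo1 in 16, Lss in 10, and Hmgcs1 and Idi1 in 8 each. At day 4 the count, 9 as reported, was 3 to 11 when leaving out 1 array at a time and 7 to 13 otherwise, with Scd1 and Acss2 called in all 23, Sc5d in 22, Lss in 21, Hmgcs1 in 20, Idi1 in 19, and Cyp51 and Msmo1 in 18 each. For the difference between days 1 gene, Scd1, passed with quantile normalization, with the dimmest 30% left out, with trend and robust variance and with array weights, and 0 otherwise, also when leaving out 1 array at a time. That difference could not be fitted on fewer groups. Counts with day were 19 to 24 in Olig2cre/DA-Cat and 19 to 25 in wild type. The change of Srebf2 with day in Olig2cre/DA-Cat turned to -0.17 with the mean of its probe sets (adjusted p = 0.0335), against 0.01 as reported, its dimmer probe set being lower by itself. The cause of the other changes was not tested. Over all genes the calls numbered 533 at day 15 (136 with the compared arrays only, 313 with the muscle covariate, 11 without the muscle-rich arrays, 292 to 935 leaving out 1 array at a time) and 567 at day 4 (2164 with array weights, 853 with the dimmest 30% left out, 223 without the muscle-rich arrays, 260 to 752 leaving out 1 array at a time). Same-numbered replicates of the genotypes had deviations correlated at 0.015 to 0.297, all positive, and those of the days at -0.297 to 0.099. The muscle level ran in the same replicate order in both genotypes at day 4, but not at day 15. The numbers were not taken to pair samples, and whether same-numbered samples were handled together was not tested. With a replicate block the counts were 5 at day 15, 8 at day 4, 22 and 24 with day in Olig2cre/DA-Cat and wild type, and 0 for the difference between days. Centring on the median, leaving out muscle-rich arrays and testing each probe set singly were chosen after seeing the data. No gene of the set was near background, whereas 3 arrays per group limit the detection of small differences. Some genes lay nearer the array maxima of 14.71 to 15.05. Group means ran from 13.13 to 13.88 for Hmgcs1 and from 13.30 to 13.74 for Scd2. Mbp of the myelin genes averaged 14.62 in Olig2cre/DA-Cat and 14.66 in wild type at day 15. Whether differences were narrowed at such high signal was not tested.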
